A study of Mus musculus with 16 samples.

Results

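Oxazolone (OXA) was compared with vehicle in the esophagus of wild-type (WT) C57BL/6 mice, with 4 libraries in each group. OXA served as the chemical allergen of an experimental model of eosinophilic esophagitis (EoE), per the labels. Genes were taken when their deposited value was at least 5 in at least 4 of the 8 WT libraries, which kept 15539 of 41411 genes. A further 16906 genes had no read in any WT library. The series holds 8 more libraries, OXA and vehicle in mice of the same strain with a deletion of Il13ra1 (KO), a receptor chain for IL-13, 4 in each group. The labels name the tissue as esophagus without saying whether the epithelium was separated from the muscle, and give no age, sex, dose, day or batch. They do not say whether the libraries came from separate animals, so p-values measure only the spread between these samples.

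The esophagus of the mouse is lined by a stratified squamous epithelium. Basal keratinocytes divide, leave the basement membrane and build a cornified surface in which loricrin, filaggrin, small proline-rich proteins and late cornified envelope proteins are cross-linked by transglutaminases. Beneath it lie a lamina propria with vessels, fibroblasts and leukocytes, and a muscle coat. OXA is a hapten: it binds to proteins of the skin, is taken to lymph nodes by dendritic cells, and on a later contact provokes a T cell response. EoE is an allergic disease in which type 2 cytokines such as IL-13 act on the epithelium and eosinophils enter it.

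Depth moved with treatment in WT. The vehicle libraries held 5.61 to 9.55 M reads and the OXA libraries 20.2 to 27.3 M, and reads of mitochondrial rRNA made up 1.10 to 1.71% of the vehicle libraries and 0.445 to 0.460% of the OXA libraries. In KO the depths overlapped, with 7.91 to 16.5 M reads under vehicle and 8.82 to 15.2 M under OXA. After every library was thinned to 5.61 M reads, 2665 genes were called higher and 2502 lower. The part of mitochondrial rRNA in the results was not tested. In whole tissue, fewer cells of a type and less RNA per cell cannot be told apart, which holds for every gene below.

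A gene was called when its adjusted p was under 0.05 in limma. Under OXA 3010 genes were called higher, 19.4% of those tested, and 2676 lower, 17.2%. Every value of the OXA libraries lay above every vehicle value in 2991 genes (19.2%) and below in 2603 (16.8%). By size, 715 called genes were at least 4-fold higher and 298 at least 4-fold lower, while at 32-fold the numbers were 28 and 32. The median log2 fold change over all genes tested was 0.09. When libraries were scaled to equal totals this median moved up by 0.31 and the calls became 5059 higher and 1485 lower, so that 77.3% of calls were higher in place of 52.9%. Small changes thus turn with the scaling, and fold changes below, on the log2(value + 1) scale, are those of the authors' scaling.

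Calls were more frequent among abundant genes, and there they leaned downward. Of 121 genes with a mean over 10000 in the 8 libraries, 12 were called higher and 66 lower. Of 7456 genes with a mean of 100 to 1000, 1666 were called higher and 1479 lower. Below a mean of 10, 135 of 1111 genes were called higher and 25 lower, with a median standard error of 0.81 against 0.21 in the genes between 100 and 1000. The value minimum bears on these counts: 146 genes passed it through OXA libraries only, of which 126 were called higher, and 51 through vehicle libraries only, of which 45 were called lower. By annotated class, 6 of 8 immunoglobulin constant genes and 4 of 7 T cell receptor constant genes were called higher and none lower. Of 558 long intergenic RNAs, 71 were called higher and 53 lower.

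**Figure D1:**
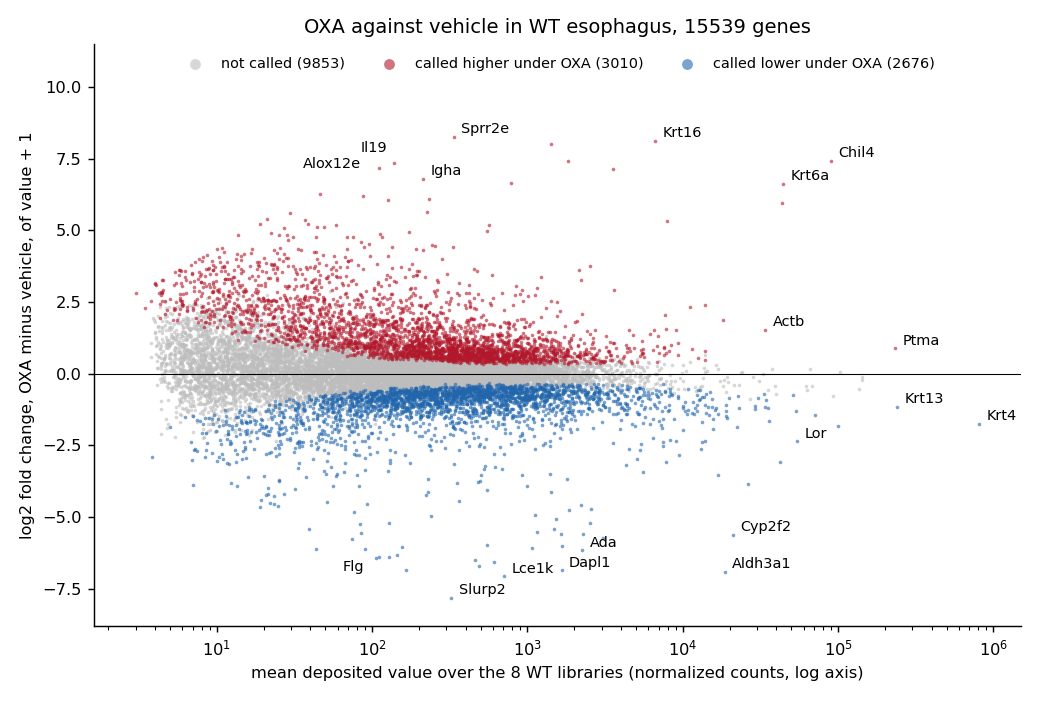
Log2 fold change (OXA minus vehicle, of value + 1) of each of the 15539 genes against its mean deposited value over the 8 WT libraries, on a log axis; red points were called higher (3010) and blue points lower (2676). At the right edge most coloured points lie below 0, with Chil4, Krt6a, Ptma and Actb among those above it.

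Of the 24 genes with the largest called fold changes, 12 in each direction, 12 were cornified envelope or keratin genes. RefSeq promoter windows (GRCm38.p6 assembly, 250 bases before the start to 50 after it) were looked up for them by symbol. Of the 12 largest rises 8 had a window, and 5 of these 8, all in Sprr2 genes, held the AP-1 motif (letters TGANTCA), which JUN and FOS family factors bind. Of the 12 largest falls 9 had a window, and that of Flg alone held it. The STAT6 letters TTCNNNNGAA were in none of the 8 windows, and the antioxidant element letters TGACNNNGC in none of the 9. The Sprr2 genes are close copies in a row, so their 5 windows are not independent. Among the genes named below by amount, AP-1 leaned the other way. It was in 1 of 8 genes with a window among the 12 largest rises and in 3 of 9 among the 12 largest falls. The windows printed here were picked after the values were seen, to show a motif beside a gene described below. The bases before the start are given 5′ to 3′ on the gene's strand, with the motif in capitals, counted from RefSeq starts, which can differ from the starts in the gene coordinates below, as for Sprr2a3 and Flg. They are Sprr2e (chr3:92351893-92352142, plus strand), Sprr2h (chr3:92385435-92385684, plus) and Flg (chr3:93273296-93273545, plus) for AP-1, Sprr2a3 (chr3:92285054-92285303, plus) for STAT6, and B2m (chr2:122147437-122147686, plus) and Il19 (chr1:130940116-130940365, minus) for the interferon-stimulated response element (ISRE, GAAA and GAAA with any 2 bases between).
Sprr2e: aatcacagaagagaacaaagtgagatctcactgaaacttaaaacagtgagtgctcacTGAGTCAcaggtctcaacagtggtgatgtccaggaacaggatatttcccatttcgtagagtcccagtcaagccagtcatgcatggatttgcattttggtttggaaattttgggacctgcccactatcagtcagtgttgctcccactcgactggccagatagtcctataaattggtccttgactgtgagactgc
Sprr2h: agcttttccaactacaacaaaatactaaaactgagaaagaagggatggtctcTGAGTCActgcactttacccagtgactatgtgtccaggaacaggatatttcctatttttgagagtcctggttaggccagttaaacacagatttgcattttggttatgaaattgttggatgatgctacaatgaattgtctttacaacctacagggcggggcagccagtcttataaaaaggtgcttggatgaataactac
Flg: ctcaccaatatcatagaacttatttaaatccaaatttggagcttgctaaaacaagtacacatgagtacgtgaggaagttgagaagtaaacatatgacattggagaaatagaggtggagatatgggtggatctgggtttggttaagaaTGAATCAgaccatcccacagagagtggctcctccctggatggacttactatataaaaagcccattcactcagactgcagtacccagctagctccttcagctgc
Sprr2a3: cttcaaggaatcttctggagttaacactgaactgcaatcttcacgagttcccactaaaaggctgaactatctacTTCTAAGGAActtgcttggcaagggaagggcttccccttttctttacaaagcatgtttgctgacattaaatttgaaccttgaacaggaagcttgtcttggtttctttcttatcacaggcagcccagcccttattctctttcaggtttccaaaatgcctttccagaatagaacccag
B2m: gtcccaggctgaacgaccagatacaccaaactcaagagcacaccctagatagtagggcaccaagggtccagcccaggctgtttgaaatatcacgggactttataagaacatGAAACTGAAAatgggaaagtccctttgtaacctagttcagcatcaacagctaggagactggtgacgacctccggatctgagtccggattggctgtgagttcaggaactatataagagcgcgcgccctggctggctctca
Il19: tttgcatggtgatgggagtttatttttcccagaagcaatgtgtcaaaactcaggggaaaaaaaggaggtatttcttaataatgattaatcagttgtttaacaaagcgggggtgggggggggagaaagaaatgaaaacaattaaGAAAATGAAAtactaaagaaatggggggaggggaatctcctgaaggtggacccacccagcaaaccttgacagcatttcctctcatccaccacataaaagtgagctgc

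Across the tested genes 11608 had such a window, 14817 windows in all, and motifs were sought on both strands. The ISRE letters were in 4.84% of the 2915 windows of genes called higher, 2.47% of the 2627 windows of genes called lower, 3.19% of all windows tested and 3.44% of all 32851 RefSeq windows. Among genes called at least 4-fold higher the share was 8.31% of 626 windows, and among those at least 4-fold lower 2.45% of 245. Of the genes named by amount, 1 of 8 rises with a window (B2m) and 1 of 9 falls (Rpl4) held the ISRE letters. The E2F letters (TTTGGCGC or TTTCCCGC), bound by factors of the S phase programme, were in 3.57% of windows of genes called higher and 1.94% of those called lower, beside 2.54% of all tested and 1.56% of all RefSeq windows. In genes at least 4-fold higher and lower the E2F shares were 2.72% and 0.408%. AP-1 letters were in 6.62% and 7.23% of the windows called higher and lower, 5.91% of all tested and 7.81% of all RefSeq windows. They reached 10.1% and 10.6% in the genes at least 4-fold higher and lower, so both directions held them at like shares. STAT6 letters were in 6.31% and 5.60% (5.68% of all tested, 6.95% of RefSeq), and the antioxidant element in 13.4% and 14.4% (13.9% and 12.4%). In genes at least 4-fold higher and lower the STAT6 shares were 8.47% and 7.76%, and those of the antioxidant element 12.9% and 13.9%. The letters GCGTG of the AhR element were in 43.9% and 47.6% (47.2% and 32.4%), and in 29.4% and 34.7% of those of genes at least 4-fold higher and lower. The antioxidant element shares its opening letters with AP-1. A match is a description of these letters and not a bound site.

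The 12 genes with the largest rise in amount together made up 1.63% ± 0.123 of the reads (SD, n = 4) in the vehicle libraries and 8.03% ± 1.02 in the OXA libraries. Chil4 (chromosome 3, 106201490 to 106219507, GRCm38), a chitinase-like lectin, read 2969, 1187, 210 and 1221 under vehicle and 83678, 225806, 184630 and 221850 under OXA. The groups were far apart, with OXA library 1 below the other OXA libraries, and the log2 fold change was 7.42 ± 0.73 (SE; adjusted p = 3.5e-07). Krt6a and Krt6b are keratins of wounded and fast-growing epithelium that lie side by side on chromosome 15. Krt6a read 1356, 436, 553 and 1720, then 72498, 87066, 74305 and 115909, a log2 fold change of 6.63 ± 0.46. Krt6b had a mean of 1343 ± 401 and then of 85657 ± 33945 (5.97 ± 0.61). Their sequences are close, and reads that match both Krt6a and Krt6b may have been left out or misassigned. Krt16, their partner keratin on chromosome 11, read 103, 12.4, 12.8 and 174 and then 16555, 10327, 5998 and 19839 (8.12 ± 0.77, adjusted p = 2.2e-07). Krt14, the keratin of the basal layer, rose from 3026 ± 529 to 12461 ± 2388 (2.04 ± 0.20).

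The rest of these 12 were envelope, antigen presentation and housekeeping genes. Sprr1a, a cornified envelope precursor, rose from 7855 ± 1872 to 28234 ± 1780 (log2 fold change 1.87 ± 0.18). Sprr2a3, of the same class, read 567, 337, 296 and 354 and then 10542, 16722, 19618 and 15162 (5.33 ± 0.30, adjusted p = 1.9e-10). H2-K1 and H2-D1 encode heavy chains of classical MHC class I, and B2m their light chain. H2-K1 read 7910, 3071, 4462 and 3341 and then 22760, 22251, 21760 and 26107 (2.41 ± 0.30). B2m read 6392, 3747, 3674 and 2003 and then 18623, 18548, 16675 and 20004 (2.34 ± 0.33), and H2-D1 rose by 1.51 ± 0.19. In H2-K1 and B2m the vehicle libraries spread more widely than the OXA libraries, with vehicle library 1 highest. Actb, a cytoskeletal actin often used as a reference gene, read 17415, 17868, 16301 and 18502 and then 51505, 46539, 54228 and 50233 (1.53 ± 0.20, adjusted p = 8.9e-06). Ptma, encoding prothymosin alpha of dividing cells, had no overlap between groups, with means of 163114 ± 10700 and 302911 ± 26586 (0.89 ± 0.31, adjusted p = 0.033). Its call was lost in 8 of 31 alternatives, among them leaving out any vehicle library or OXA library 2, 3 or 4, with adjusted p up to 0.304.

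**Figure D2:**
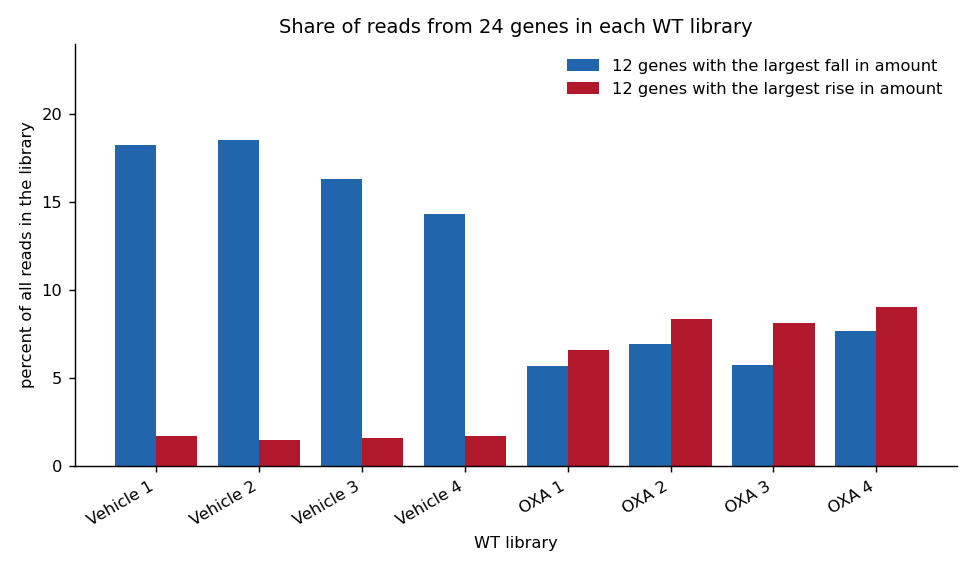
Percent of all reads in each WT library that came from the 12 genes with the largest called fall in mean value (blue) and the 12 with the largest called rise (red). The fallers made up 14.3 to 18.5% of each vehicle library and 5.67 to 7.68% of each OXA library, and the risers 1.46 to 1.73% and 6.61 to 9.04%.

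The 12 genes with the largest fall in amount went from 16.9% ± 1.95 of the reads to 6.51% ± 0.966. Krt4 and Krt13 are the paired keratins of the suprabasal esophagus. Krt4 read 1440620, 1395190, 1229070 and 926888 under vehicle and 290427, 404610, 309671 and 498260 under OXA, with no overlap. Its log2 fold change was -1.75 ± 0.61 (adjusted p = 0.031), with the spread estimated over all 16 libraries, and the call was lost in 10 of 31 alternatives. These were no filter, the filter over 16 libraries, quantile normalization (fold change -0.40, adjusted p = 0.507) and leaving out any vehicle library or OXA library 1, 2 or 3. Krt13 read 382700, 402733, 267046 and 279693 and then 116771, 154558, 145126 and 178176 (-1.16 ± 0.39, adjusted p = 0.028). Its call was lost in 6 alternatives, with no filter and without vehicle library 1 or 2 or OXA library 1, 2 or 3, with adjusted p up to 0.292.

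Several of these 12 genes belong to the cornified layer, while the envelope genes Sprr1a and Sprr2a3 rose. Lor, loricrin, the main protein of the envelope, read 109383, 78741, 98075 and 77840 and then 17339, 17024, 15989 and 20541 (log2 fold change -2.35 ± 0.25, adjusted p = 1.2e-06). Asprv1, a protease that processes filaggrin, fell from 76118 ± 28812 to 8767 ± 1989 (-3.08 ± 0.30). Tgm3, an envelope transglutaminase, fell by 1.66 ± 0.25 on the log2 scale and Krtdap, a keratinocyte differentiation gene, by 1.86 ± 0.31. Lce3e, a late cornified envelope gene, read 37348, 40490, 24191 and 22116 and then 3112, 2483, 1861 and 3020 (-3.55 ± 0.27). Rpl4, a protein of the large ribosomal subunit, fell by 1.44 ± 0.27, and the muscle genes Tnnt3 (fast troponin T) by 1.29 ± 0.27 and Tpm1 (tropomyosin) by 1.14 ± 0.26. The Tpm1 call was lost under quantile normalization (adjusted p = 0.0626).

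Cyp2f2 and Aldh3a1, of foreign compound and aldehyde metabolism, fell furthest among these 12. Aldh3a1 (chromosome 11, 61207537 to 61218421) oxidizes aldehydes from lipid peroxidation. It read 39780, 37956, 35183 and 34481 under vehicle and 411, 271, 218 and 361 under OXA (log2 fold change -6.90 ± 0.24, adjusted p = 5.7e-13). Cyp2f2 (chromosome 7, 27119909 to 27133660) encodes a cytochrome P450 that is abundant in club cells of the airway. It read 35726, 54185, 37463 and 37681 and then 589, 755, 1032 and 1014 (-5.62 ± 0.22, adjusted p = 1.4e-12). Of 14 airway and lung markers 3 were tested, and Scgb1a1, the secretoglobin that defines club cells, was called lower too. Scgb1a1 read 33.0, 161, 109 and 64.6 and then 24.3, 3.08, 9.02 and 7.02 (-3.06 ± 0.50). The other 11 markers of that list stayed under the value minimum, and Bpifa1 and Muc5b had no read in any WT library. The part of airway tissue in the Cyp2f2 values was not tested.

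**Figure D3:**
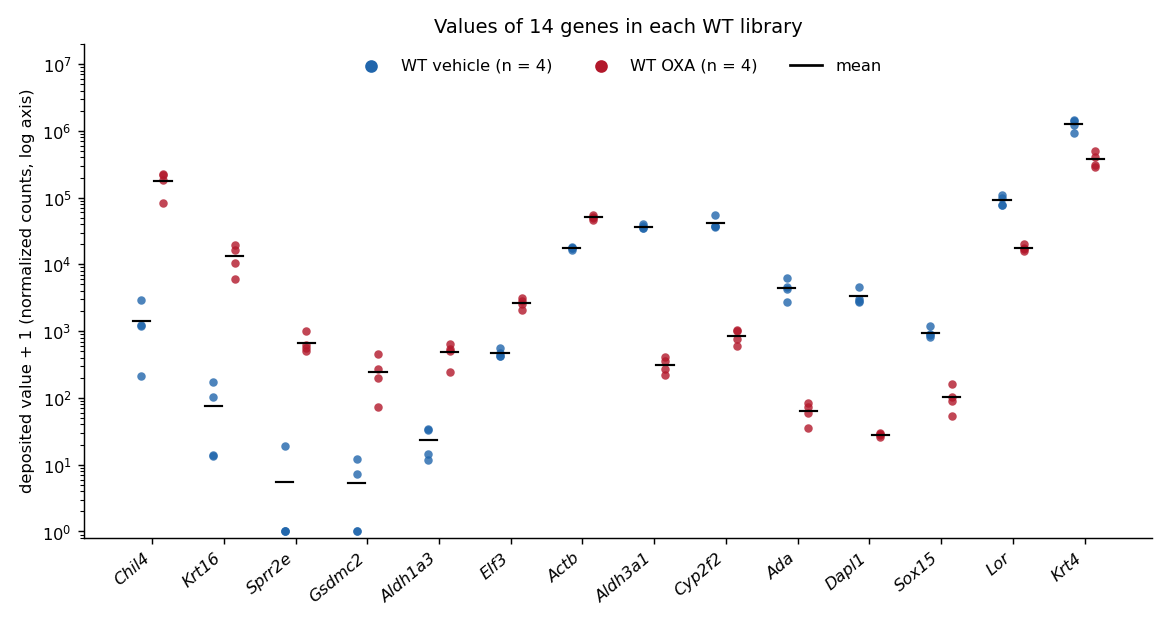
Deposited value + 1 on a log axis for 14 genes in the 4 vehicle libraries (blue) and the 4 OXA libraries (red) of WT mice, with black lines at the group means. In each of the 14 genes the groups do not overlap, from Sprr2e, with 3 of 4 vehicle libraries at 0, to Krt4 near the top of the scale.

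By fold, the largest rises were again Sprr2 genes, keratins and lipoxygenases. The Sprr2 genes, small proline-rich proteins, lie in a row on chromosome 3. Sprr2e (92352143 to 92353449) read 0, 0, 0 and 17.8 and then 1005, 495, 620 and 553 (log2 fold change 8.27 ± 0.93, adjusted p = 1.9e-06). Sprr2h read 12.4, 9.27, 16.4 and 86.9 and then 4062, 3585, 3404 and 3500 (7.40 ± 0.53). Sprr2f rose by 8.02 ± 0.79, Sprr2d by 7.15 ± 0.75 and Sprr2i by 6.10 ± 0.60. Vehicle library 4 held the highest vehicle value of Sprr2e, Sprr2f, Sprr2h and Sprr2d. The Sprr2 copies are near-identical, so reads that match several may have been left out or misassigned, and the values of single copies are uncertain.

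Il19, a cytokine of the IL-10 family that acts on keratinocytes, read 0, 0, 5.47 and 0 and then 368, 179, 335 and 212 (7.36 ± 0.78, adjusted p = 9.2e-07). Alox15 and Alox12e, lipoxygenases that oxidize arachidonic acid, neighbour each other on chromosome 11. Alox12e read 2.75, 0, 0 and 0 and then 129, 303, 334 and 120 (7.17 ± 0.86). Alox15 read 19.3, 58.7, 0 and 22.3 and then 633, 2304, 2466 and 812 (6.66 ± 1.01). In both genes OXA libraries 2 and 3 were the highest. Igha, the constant region of IgA, rose from 3.47 ± 2.88 to 422 ± 170 (6.81 ± 0.94). With values this near 0 under vehicle, the fitted fold depends on the pseudocount. Alox12e reached the value minimum through the OXA libraries alone and so had to lie higher there.

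The largest falls were of late differentiation genes and secreted or metabolic proteins of keratinocytes. Slurp2, a secreted protein of the Ly6 family, read 731, 822, 401 and 626 and then 5.81, 0.51, 4.71 and 0 (log2 fold change -7.82 ± 0.47, adjusted p = 5.0e-10). Dapl1, a gene of cells entering terminal differentiation, read 2779, 4596, 3010 and 2837 and then 28.7, 27.7, 24.7 and 26.5 (-6.86 ± 0.28, adjusted p = 2.6e-12), and its OXA libraries lay within a narrow range. Ada, adenosine deaminase, read 4564, 6268, 4256 and 2755 and then 82.4, 58.0, 34.9 and 72.9 (-6.15 ± 0.24). Lce1k fell from 1404 ± 386 to 11.6 ± 9.47 (-7.07 ± 0.38), Lce1l changed by -6.57 ± 0.29, Lce1j by -6.49 ± 0.39 and Lce1m by -6.31 ± 0.41. The Lce1 genes are close copies on chromosome 3, where reads that match several may have been left out or misassigned. Flg, filaggrin, read 127, 369, 246 and 136 and then 2.54, 1.54, 0 and 2.70 (-6.38 ± 0.47). Skint6, of a family that supports T cells within the epithelium, fell by 6.70 ± 0.39 on the log2 scale. Tmem45a2 changed by -6.86 ± 0.49, and Cyp2a5, a P450 of foreign compound metabolism, by -6.41 ± 0.47. Flg and Cyp2a5 reached the value minimum through the vehicle libraries alone and so had to lie lower under OXA.

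Both directions met on chromosome 3. Lor begins at 92080271, Sprr2a3 at 92285417, Sprr2i at 92407991, Sprr1a at 92483952, Lce1j at 92788840, Lce3e at 92967061 and Flg at 93273523. Within this stretch, the epidermal differentiation complex, the Sprr genes named here rose, while Lor, Flg and the Lce genes named here fell.

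Genes with no read in the 4 vehicle libraries were sought, leaving out predicted, unnamed and mitochondrial genes. The 6 with the highest OXA values are named here, and a floor of 3 reads over the group gives their lowest fold. Mrgprg, a receptor of the Mas-related family, read 124, 85.2, 135 and 22.1 under OXA, at least 97.7-fold higher relative to library totals. Cxcl2, a chemokine for neutrophils, read 42.8, 15.4, 64.7 and 114 (at least 57.4-fold). Traj18, a joining segment of the T cell receptor alpha chain that is known from invariant NKT cells, read 49.7, 49.8, 37.7 and 30.8 (at least 42.3-fold). The interferon-inducible gene Ifi213 was at least 39.1-fold higher, the membrane-bound protease Mmp25 at least 27.1-fold and Pbp2, which encodes a phospholipid-binding protein, at least 24.2-fold. All 6 reached the value minimum through the OXA libraries alone and were picked for their values, so a pass in the test adds nothing, and Pbp2 missed it in DESeq2 (adjusted p = 0.0664). With the same genes left out, no gene that reached the value minimum had 0 reads over the OXA libraries.

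Gene lists were read by their counts and medians beside those over all genes tested, without a test of the list. Over all genes tested 19.4% were called higher and 17.2% lower. Counts near these shares say nothing particular about the members of a list. Summed values cover every listed gene in the deposited data, tested or not. Detoxification enzymes were the epithelial list that fell most widely. Of 38 tested, 24 were called lower and 3 higher, with a median log2 fold change of -1.12 beside 0.09 over all genes. Their summed value was 170044 to 214164 in the vehicle libraries and 28176 to 33818 in the OXA libraries. Gstm1 and Gstm2, glutathione transferases of the mu class, lost a large part of their reads. Gstm2 read 9364, 10075, 10348 and 10682 and then 929, 1027, 975 and 799 (-3.44 ± 0.25), and Gstm1 fell from 22542 ± 2917 to 3674 ± 891 (-2.64 ± 0.21). Cbr2, a carbonyl reductase, fell by 3.07 ± 0.30, and Nqo1, a quinone reductase that NRF2 controls, fell by 2.60 ± 0.25. Aldh1a7 fell from 4910 ± 951 to 195 ± 90.6 (-4.73 ± 0.27) and Adh7, an alcohol dehydrogenase of the upper digestive tract, fell by 2.40 ± 0.26. Against the list, Aldh1a3, which makes retinoic acid, read 33.0, 32.5, 10.9 and 13.4 and then 641, 245, 542 and 502 (4.44 ± 0.45, adjusted p = 5.2e-07).

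Of 17 genes of the retinoid pathway, 8 were called lower and 2 higher (median -0.85). Rarres1, a gene induced by retinoids, fell from 59.9 ± 10.3 to 3.81 ± 3.23 (-4.02 ± 0.49). Cyp26b1, which breaks down retinoic acid, fell from 399 ± 267 to 64.1 ± 17.5 (-2.47 ± 0.31). Among the genes named, the retinoic acid maker Aldh1a3 rose, while Rarres1 and Cyp26b1 fell, as did the alcohol dehydrogenase Adh7. These are single genes, and a change in retinoic acid was not tested.

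Protease inhibitors and antimicrobial proteins moved both ways. Of 23 stefins, cystatins and serpins, 6 rose and 6 fell, and their median of -0.07 turned positive with equal library totals (0.25) and without vehicle library 2 (0.13). Slpi, an inhibitor of leukocyte elastase, fell by 1.21 ± 0.28, and Cst6, a cystatin of the cornified layer, from 344 ± 72.5 to 75.5 ± 15.8 (-2.17 ± 0.28). Serpina3n, an acute phase inhibitor, rose from 123 ± 10.7 to 669 ± 187 (2.40 ± 0.35). Of 21 antimicrobial proteins 7 rose and 6 fell, with a median of 0.15 that turned negative with a minimum of 20 (-0.00419) and with quantile normalization (-0.0418). S100a8, a calprotectin subunit, read 15.2, 47.9, 21.9 and 20.1 and then 229, 404, 242 and 409 (3.64 ± 0.67). The beta-defensins split: Defb4 read 9550, 14336, 7122 and 5431 and then 1341, 1828, 951 and 2438 (-2.47 ± 0.31), while Defb14 rose from 525 ± 83.1 to 1405 ± 562 (1.33 ± 0.27).

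Gasdermins, caspases and partners, which form pores or execute cell death, were called higher in 12 of 21 genes and lower in 5 (median 1.37). Their summed value nonetheless went from 12679 to 19922 under vehicle down to 7211 to 11526 under OXA. Within the gasdermins the members split. Gsdmc read 593, 771, 431 and 515 and then 1507, 3042, 2699 and 3409 (2.17 ± 0.28). Gsdmc2, its neighbour on chromosome 15, read 11.0, 6.18, 0 and 0 and then 72.6, 272, 448 and 195 (6.07 ± 0.76). Gsdma, the gasdermin of differentiated squamous cells, fell from 9559 ± 2954 to 2797 ± 647 (-1.75 ± 0.23). Casp14, the caspase of cornification, fell by 2.61 ± 0.20 and Nlrp10, of the NLR family, by 2.81 ± 0.28. Casp4 (murine caspase-11, a sensor of cytosolic lipopolysaccharide) rose by 1.72 ± 0.31 and Mlkl, the executor of necroptosis, from 22.5 ± 8.35 to 239 ± 64.2 (3.38 ± 0.44).

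Of 17 gap junction and mucin genes, 2 rose and 6 fell, and the median of -0.15 turned positive with equal library totals (0.11) and without OXA library 1 (0.05). Gap junctions join keratinocytes by connexin channels. Gja1 (connexin 43) fell by 1.29 ± 0.20. Gjb2 (connexin 26) rose from 2115 ± 34.0 to 3171 ± 638 (0.56 ± 0.14, adjusted p = 0.0039). Ceacam1, an adhesion receptor, rose by 2.25 ± 0.39.

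Transcription factors of keratinocytes held 11 that rose and 9 that fell of 40 (median 0.12). Sox15, a factor of esophageal keratinocytes, read 916, 813, 876 and 1195 and then 103, 87.8, 52.6 and 162 (-3.31 ± 0.32, adjusted p = 2.4e-07). Foxe1 fell from 187 ± 46.8 to 28.3 ± 10.6 (-2.73 ± 0.30) and Grhl3, which drives barrier genes, from 2345 ± 67.0 to 1049 ± 143 (-1.17 ± 0.15). Elf3, an epithelial ETS factor, read 417, 420, 566 and 468 and then 2790, 2582, 3185 and 2048 (2.49 ± 0.20, adjusted p = 1.8e-08), and Runx1 rose by 1.49 ± 0.22. Foxe1 is also a thyroid factor. Of 10 thyroid and parathyroid markers 2 were tested, Foxe1 and Tshr, the thyrotropin receptor, which did not pass, and Pth and Gcm2 had no read in any WT library.

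Among 34 EGF, Notch and Wnt ligands and receptors 6 rose and 9 fell, beside 19.4% and 17.2% over all genes. The median of -0.06 turned positive with equal library totals (0.26). The Wnt ligands Wnt7b (895 ± 76.2 to 189 ± 49.4, log2 fold change -2.27 ± 0.19) and Wnt10a (-1.33 ± 0.26) fell. Hbegf, a ligand of the EGF receptor, rose from 388 ± 72.4 to 795 ± 118 (1.04 ± 0.19). Epgn, another such ligand, read 0, 26.3, 31.0 and 22.3 and then 446, 23.1, 49.4 and 274, so the groups overlapped. Its change of 3.21 ± 1.07 passed (adjusted p = 0.025) but was lost in 5 alternatives, among them leaving out vehicle library 1 (2.02) or OXA library 1 (2.54) or 4 (2.77). Of 26 genes of the BMP and TGF-beta pathway 4 rose and 6 fell (median 0.12), but 9 and 2 with equal totals, so the list shows no steady direction. Of these, Ltbp1, which anchors latent TGF-beta in the matrix, read 169, 185, 153 and 145 and then 844, 958, 1179 and 1144 (2.65 ± 0.16, adjusted p = 5.0e-10), and Smad7, an inhibitor of its signalling, rose by 1.14 ± 0.30 although its groups overlapped.

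**Figure D4:**
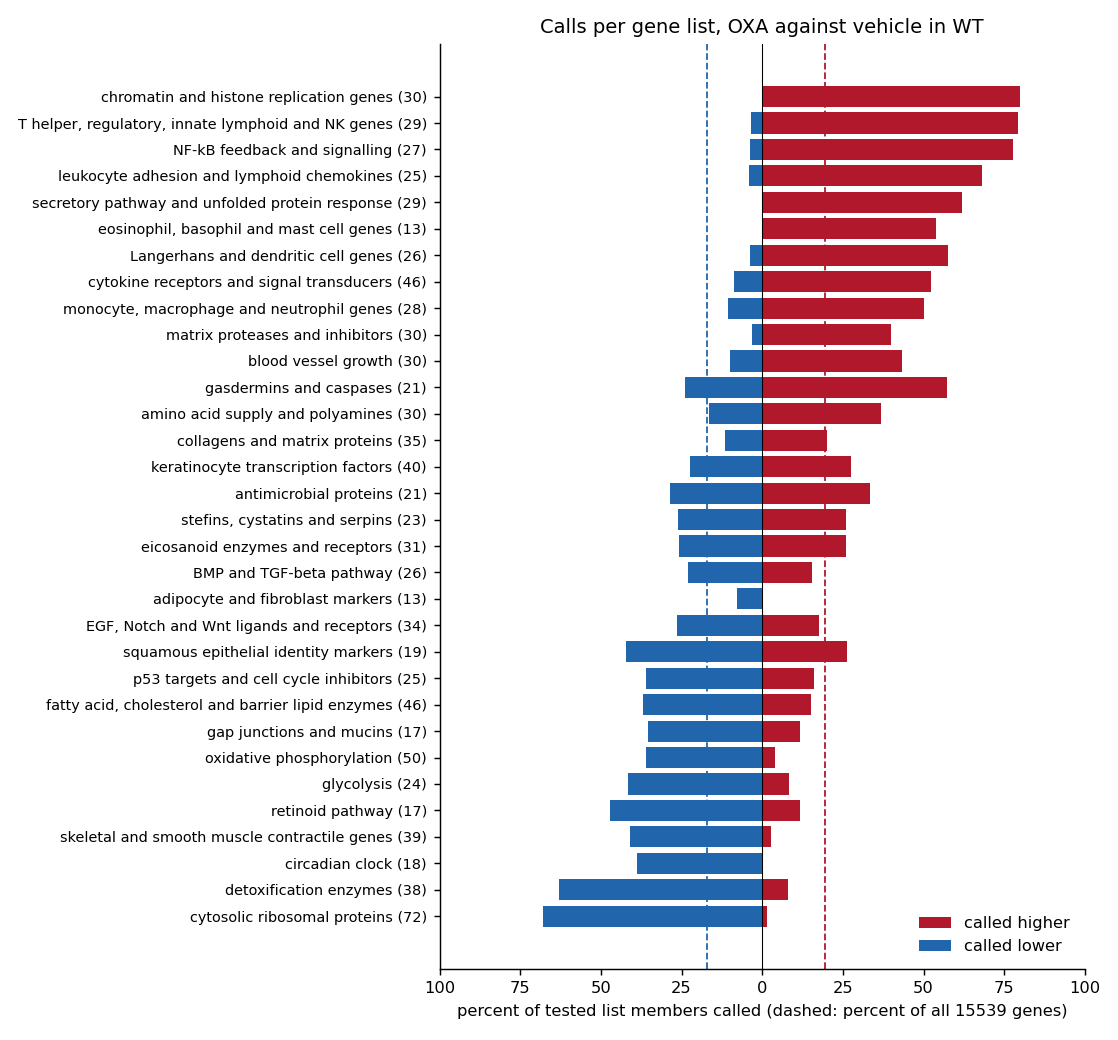
Percent of the tested members of 32 gene lists that were called higher (red, to the right) or lower (blue, to the left) under OXA in WT mice, with the number tested in parentheses; dashed lines mark 19.4% and 17.2%, the shares over all genes. Chromatin replication and T helper and NK genes lie at the top and cytosolic ribosomal proteins and detoxification enzymes at the bottom.

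Genes of energy metabolism leaned down under the authors' scaling. Of 24 glycolysis genes 2 rose and 10 fell (median -0.46), but 4 and 4 with equal library totals (-0.14). Aldoc, an aldolase, fell from 432 ± 108 to 146 ± 25.9 (-1.54 ± 0.21) and Eno3, the enolase of muscle, fell by 1.16 ± 0.25. Of 50 genes of oxidative phosphorylation 2 rose and 18 fell (-0.37), but 7 and 9 with equal totals (-0.05). Atp5c1, a subunit of ATP synthase, fell by 1.19 ± 0.18 and Cox8a, of cytochrome oxidase, by 1.05 ± 0.21. Amino acid supply leaned up: 11 of 30 genes rose and 5 fell (0.35), and 18 and 3 with equal totals. Slc7a8, a transporter of neutral amino acids, read 28.9, 26.3, 25.5 and 44.6 and then 323, 392, 433 and 261 (3.46 ± 0.33). Slc7a5, of the same family, rose from 119 ± 58.9 to 596 ± 88.6 (2.45 ± 0.31). Mthfd2 and Mthfd1l, mitochondrial enzymes of folate metabolism, rose by 2.30 ± 0.39 and 1.93 ± 0.24. Of 46 lipid enzymes 7 rose and 17 fell (14 and 11 with equal totals, where the median turned from -0.15 to 0.17). Dgat2, which makes triglycerides, fell from 1921 ± 310 to 549 ± 56.0 (-1.80 ± 0.15).

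Of 72 cytosolic ribosomal proteins 49 fell and 1 rose, with a median of -0.80, and 34 and 2 with equal library totals (-0.48). Their summed value was 674171 to 925515 under vehicle and 377692 to 605610 under OXA, ranges that do not overlap. Rpl10a read 13835, 18946, 15808 and 15531 and then 3537, 4299, 3384 and 5454 (-1.96 ± 0.29), and Rps16 fell by 1.80 ± 0.26. Rplp2, the member that rose, had overlapping groups (0.51 ± 0.17, adjusted p = 0.028) and lost its call in 4 alternatives, without vehicle library 1 or 2, without OXA library 3 and with the WT libraries alone (adjusted p up to 0.107). Rpl13 and Rpl24 are listed at 0 in all libraries, which for such genes is no measure of expression. Of 29 genes of the secretory pathway and unfolded protein response 18 rose and 0 fell by limma (median 0.67), and none fell with equal totals, quantile normalization or TMM scaling. Pdia4, a folding enzyme of the endoplasmic reticulum, rose from 130 ± 33.1 to 419 ± 60.8 (1.70 ± 0.21), and Hsp90b1, its chaperone of the HSP90 family, from 1269 ± 261 to 3569 ± 528 (1.51 ± 0.19).

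Of 30 genes that copy and package chromatin 24 rose and 0 fell by limma (median 0.94), and none fell under those 3 scalings. Uhrf1, which carries DNA methylation through replication, read 49.6, 38.6, 27.4 and 40.1 and then 263, 270, 357 and 377 (3.004 ± 0.27, adjusted p = 1.4e-07). Hells, a chromatin remodeller, rose by 2.89 ± 0.38 and Ncapg2, a condensin subunit, by 2.65 ± 0.34. Of 25 p53 targets and cell cycle inhibitors 4 rose and 9 fell (7 and 7 with equal totals, where the median turned from -0.29 to 0.03). Cdkn1a (p21) read 9660, 9343, 11450 and 11286 and then 5396, 4078, 3917 and 3676 (-1.30 ± 0.20), and Cdkn2c (p18) fell by 1.52 ± 0.25. Pmaip1 (Noxa), a killer of the BCL2 family, rose from 7.97 ± 3.28 to 83.2 ± 18.4 (3.28 ± 0.38). Of 18 clock genes 7 fell and 0 rose by limma, but 3 fell and 2 rose with equal totals, where the median turned from -0.15 to 0.17. Nr1d1 (REV-ERB alpha) fell by 1.001 ± 0.22. Dbp fell by 0.99 ± 0.25, with vehicle library 4 at 847 and the other vehicle libraries at 299 to 346. The time of day of sampling is not given in the sources used here.

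Of 31 eicosanoid enzymes and receptors 8 rose and 8 fell, with a median of 0.08 that turned to -0.03 with quantile normalization. Besides Alox15 and Alox12e, Tbxas1, thromboxane synthase, read 131, 51.0, 124 and 73.5 and then 517, 532, 489 and 477 (2.50 ± 0.33). Hpgds, the prostaglandin D synthase of blood cells, rose by 2.63 ± 0.72. Hpgd, which inactivates prostaglandins, fell from 2750 ± 796 to 1100 ± 353 (-1.33 ± 0.25), and Ptger3, a receptor for prostaglandin E2, fell by 1.282 ± 0.18.

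Genes of leukocyte entry and cytokine signalling rose widely. Of 25 adhesion and lymphoid chemokine genes 17 rose and 1 fell (median 1.90). Vcam1, to which leukocytes bind on endothelium, read 71.6, 110, 73.0 and 84.7 and then 397, 306, 285 and 280 (1.90 ± 0.28). Cxcr6, a receptor of tissue lymphocytes, read 79.9, 13.9, 14.6 and 8.91 and then 255, 230, 259 and 365 (3.72 ± 0.67), and Ccr7, which guides dendritic and T cells to lymph nodes, rose by 3.65 ± 0.62. Of 46 cytokine receptors and signal transducers 24 rose and 4 fell (0.82). Il2rb, of the IL-2 and IL-15 receptors, rose from 5.92 ± 5.74 to 132 ± 25.1 (4.78 ± 0.76), and Csf2rb, the shared chain for IL-3, IL-5 and GM-CSF, from 37.9 ± 21.9 to 229 ± 24.03 (2.76 ± 0.42). Il20ra, an IL-20 family receptor chain, read 16.5, 121, 1.82 and 17.8 and then 195, 425, 590 and 574 (4.48 ± 0.84). Il1r2, a decoy receptor for IL-1, went the other way: 654, 819, 1098 and 1123, then 51.5, 63.6, 78.1 and 79.9 (-3.72 ± 0.24, adjusted p = 1.2e-09). Of 27 genes of NF-kB signalling and feedback 21 rose and 1 fell (1.12). Map3k14 (NIK), the kinase of the alternative pathway, read 97.8, 51.0, 65.7 and 71.3 and then 375, 356, 423 and 328 (2.39 ± 0.28). Nfkbiz, a nuclear cofactor, rose by 1.79 ± 0.23, and Ltb, lymphotoxin beta, by 4.01 ± 0.87.

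Leukocyte markers rose from low levels. Of 43 T helper, regulatory, innate lymphoid and NK genes 29 were tested, of which 23 rose and 1 fell (median 2.998). Of the 29, 6 reached the value minimum in the OXA libraries alone and so had to lie higher there. Their summed value was 564 to 1348 under vehicle and 2757 to 3173 under OXA. Gzmb and Gzma, granzymes of cytotoxic cells, rose by 4.43 ± 0.88 and 4.10 ± 0.88. Gzmb read 55.1, 1.55, 31.0 and 2.23 and then 244, 178, 199 and 362. Icos, a costimulatory receptor, read 51.0, 30.9, 18.2 and 4.46 and then 179, 241, 248 and 225 (3.45 ± 0.91). Tbx21, the factor of type 1 lymphocytes, rose from 2.45 ± 3.94 to 44.0 ± 10.8 (4.32 ± 0.89). Themis, a T cell signalling gene, rose from 12.2 ± 10.6 to 178 ± 14.5 (4.51 ± 0.84). Themis was also listed among 14 thymus and lymph node markers, of which 5 were tested, 2 rose, and Rag1, Aire and Glycam1 had no read in any WT library. The part of lymphoid tissue attached to the samples was not tested.

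Of 26 Langerhans and dendritic cell genes 15 rose and 1 fell (median 1.73). Their summed value nonetheless went from 21156 to 27383 under vehicle down to 15594 to 19895 under OXA, most of it under vehicle from Ly6d, the member that fell, a surface protein that squamous keratinocytes also carry and that was singled out after its values were seen. Batf3, a factor of cross-presenting dendritic cells, rose from 4.83 ± 2.25 to 60.8 ± 11.4 (3.49 ± 0.48). Fscn1, of mature dendritic cells, read 173, 144, 162 and 227 and then 641, 657, 630 and 615 (1.86 ± 0.26), and Bst2, induced by interferon, rose by 2.23 ± 0.40. Cd207 (langerin), which marks Langerhans cells, had 26 reads over the vehicle libraries and 0 over the OXA libraries, too few to be tested. Of 28 monocyte, macrophage and neutrophil genes 14 rose and 3 fell (1.18). Chil3, a chitinase-like protein of activated macrophages, rose from 2.41 ± 4.82 to 54.4 ± 19.6 (4.85 ± 0.82) and Fcgr4, an Fc receptor, by 3.16 ± 0.72. Gpnmb, a glycoprotein of lipid-laden macrophages and pigment cells, read 526, 627, 819 and 898 and then 93.3, 134, 89.8 and 197 (-2.51 ± 0.23), and Apoe, of lipid transport, fell by 1.16 ± 0.19.

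Of 27 eosinophil, basophil and mast cell genes only 13 reached the value minimum, of which 7 rose and 0 fell by limma (median 1.86); none fell under the 3 scalings named above. The summed value of the listed genes went from 181 to 370 under vehicle to 1226 to 3036 under OXA. Alox15 had means of 25.1 and 1553, most of the sum under OXA but not under vehicle. Mcpt1, a protease of mucosal mast cells, read 0, 0, 14.6 and 0 and then 93.6, 69.3, 62.4 and 68.0 (5.21 ± 1.10). Ear2, a ribonuclease of eosinophils and macrophages, rose by 2.39 ± 0.54. Among markers that define eosinophils, Epx and Prg3 are listed at 0 in every WT library, Prg2 had 0 reads over the vehicle and 29 over the OXA libraries, and Siglecf 0 and 11.

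The stroma held calls in both directions, as did all genes tested (19.4% higher and 17.2% lower). Of 30 matrix proteases and inhibitors 12 rose and 1 fell (median 0.52). Timp1, an inhibitor of metalloproteinases, read 16.5, 4.64, 3.65 and 6.69 and then 96.2, 65.2, 85.5 and 90.2 (3.45 ± 0.51), and Lox, which cross-links collagen, rose by 2.66 ± 0.54. Of 35 collagens and matrix proteins 7 rose and 4 fell (0.31), and 13 and 4 with quantile normalization. Eln, elastin, rose from 868 ± 344 to 2614 ± 456 (1.67 ± 0.26). Col17a1 and Lamb3, which anchor basal keratinocytes to the basement membrane, fell. Col17a1 read 2335, 1684, 2268 and 3022 and then 494, 627, 646 and 925 (-1.79 ± 0.21), and Lamb3 fell by 1.33 ± 0.22. Of 30 genes of blood vessel growth 13 rose and 3 fell (0.74). Sox17 and Sox18, factors of endothelium, rose by 1.89 ± 0.39 and 2.15 ± 0.44, and Plvap, of fenestrated vessels, by 1.71 ± 0.33.

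Of 39 contractile genes of skeletal and smooth muscle 16 fell and 1 rose (median -0.55), 13 and 3 with equal totals (-0.23) and 10 and 3 with quantile normalization (-0.24). Their summed value was 395438 to 720216 under vehicle and 246145 to 458631 under OXA, so these ranges overlap. Myh4, the fast myosin heavy chain, read 10968, 3988, 9032 and 6880 and then 1469, 802, 867 and 1788 (-2.63 ± 0.33), and Cnn1, calponin of smooth muscle, fell by 1.54 ± 0.35. The part of the muscle coat in the epithelial values was not tested.

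The tissue label held in its markers: of 20 markers of squamous epithelium 19 were tested, 5 of them called higher and 8 lower (median -0.25, but 0.07 with equal totals). Their summed value was 1398020 to 2013030 under vehicle and 575995 to 928310 under OXA, most of it Krt4 and Krt13, and Sox2 is listed at 0 in all libraries. Of 17 stomach and salivary gland markers 6 were tested and 0 called by limma under any of the 3 scalings. Of 13 adipocyte and fibroblast markers tested 0 rose and 1 fell (2 and 0 with equal totals), and of 8 markers of red blood cells and platelets 0 rose and 1 fell by limma.

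Some genes varied widely within a group. Gkn2 and Tff1, secreted proteins of the stomach lining, were uneven in both. Gkn2 read 350, 12.4, 301 and 22.3 under vehicle and 6.90, 46.7, 177 and 57.8 under OXA, and Tff1 1073, 368, 1580 and 37.9 and then 58.4, 265, 660 and 262. Neither passed (Tff1: -0.79 ± 0.90, adjusted p = 0.525), although Tff1 did without vehicle library 4 (adjusted p = 0.0487). Plet1, a surface protein of epithelial progenitors, read 13.8, 30.9, 27.4 and 62.4 and then 363, 13.9, 139 and 120 (1.69 ± 0.69, adjusted p = 0.061). It passed in 6 alternatives, among them without vehicle library 4 and without OXA library 2. Apol9a and Zbp1, both named for their spread among the vehicle libraries, were uneven there. Apol9a read 365, 41.7, 56.5 and 2.23 and then 243, 82.1, 109 and 179 (1.78 ± 0.91, adjusted p = 0.137), and passed without vehicle library 1 (2.83, adjusted p = 0.00942). Zbp1, a sensor of unusual nucleic acids, read 132, 20.1, 67.5 and 2.23 and then 425, 188, 259 and 367, without overlap (3.40 ± 0.76, adjusted p = 0.0019). In both, vehicle library 1 was the highest of its group and vehicle library 4 the lowest.

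The KO libraries were read side by side with the WT libraries. The group means share no library, but the fit estimated the spread of each gene over all 16 libraries. The standard errors of a gene are therefore the same in WT and KO and do not show the spread in KO alone. In KO, 306 genes were called higher under OXA (1.97%) and 16 lower (0.103%) by the same rule, and without KO OXA library 4 the calls in both directions rose from 322 to 1051. The difference between the KO and WT effects passed its own test in 3013 genes (19.4%), 57.1% of them with the KO effect above the WT effect. With equal library totals that share was 20.3%. Depth moved with OXA in WT and not in KO, so it coincides with this difference. On reads thinned to equal depth, 2685 genes passed the test of the difference and 305 were called in KO. Among the 3010 genes called higher in WT the median effect was 1.12 in WT and 0.11 in KO, and 1179 (39.2%) passed the test of the difference. Among the 2676 called lower the medians were -0.94 and -0.006, and 1505 (56.2%) passed. These genes were chosen on their WT values, which enter the difference, so the shares describe them and are no independent result. All 24 genes named by fold passed the test of the difference in limma, with the same reserve. Aldh3a1 changed by -6.90 ± 0.24 in WT and by -0.82 ± 0.24 in KO, Slurp2 by -7.82 ± 0.47 and 0.23 ± 0.47, and Flg by -6.38 ± 0.47 and 1.42 ± 0.47. Of those that rose, Chil4 changed by 7.42 ± 0.73 and 1.46 ± 0.73, Alox15 by 6.66 ± 1.01 and 0.29 ± 1.01, and Sprr2d by 7.15 ± 0.75 and 3.87 ± 0.75.

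By list, the medians of epithelial and immune genes lay differently between the genotypes. Detoxification enzymes had a median of -1.12 in WT and 0.03 in KO, with 21 of 38 passing the test of the difference. Ribosomal proteins had -0.80 and 0.61, with 59 of 72 passing that test, although 0 of the 72 were called in KO by limma. Chromatin replication genes had 0.94 and 0.11 (15 of 30 passing), NF-kB genes 1.12 and 0.27 (9 of 27), and blood vessel genes 0.74 and -0.31 (12 of 30). T helper and NK genes had 2.998 and 1.80, with 1 of 29 passing the test of the difference. Of these, 23 were called higher in WT and 9 in KO by limma. The genes named from this list had large standard errors, so few passes do not show equal effects. Monocyte and macrophage genes had 1.18 and 0.88, with 6 of 28, near the 19.4% over all genes.

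**Figure D5:**
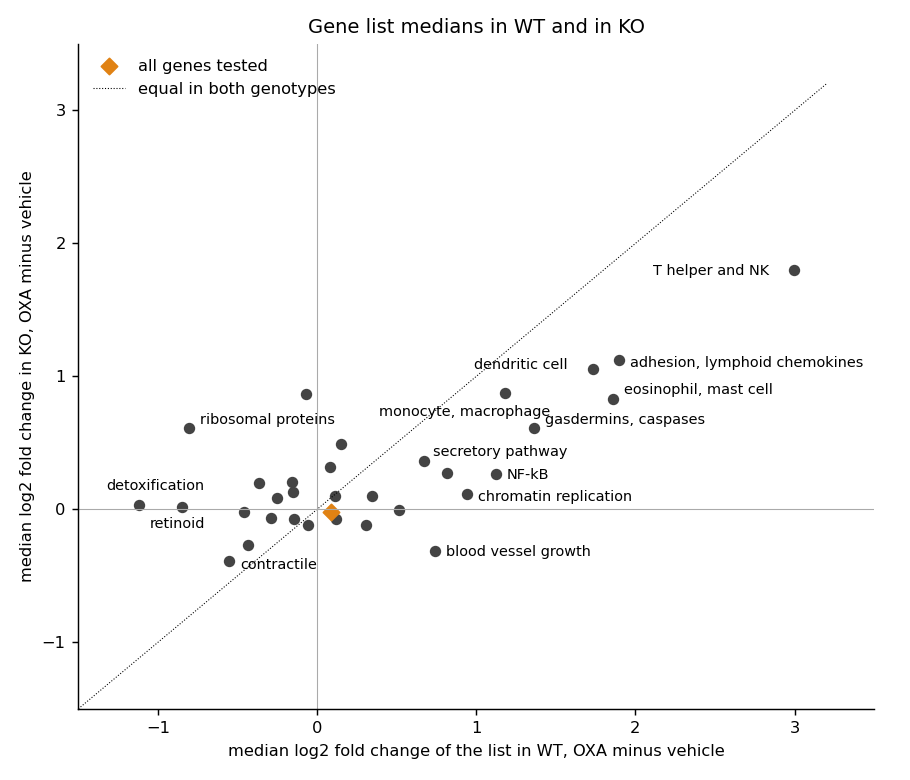
Median log2 fold change (OXA minus vehicle) of the tested members of 32 gene lists in WT (horizontal) and in KO (vertical), each point a list, with all 15539 genes as an orange diamond and a dotted line where both would be equal. T helper and NK genes lie furthest to the upper right, at 2.998 and 1.80, and detoxification enzymes at the left edge near 0 in KO.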

How the data were processed

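RNA of 16 esophagus libraries was read by CEL-Seq, which counts 3′ tags, on a NextSeq550, per the labels' protocols. Per the submitters' processing notes the tools were FastQC 0.11.5, Trim Galore, cutadapt 1.10, TopHat2 2.1.0, Bowtie2 2.2.6, HTSeq 0.6.1 and DESeq2 1.28.0 with build GRCm38. The deposited signal per gene carries the authors' name of normalized counts, made by steps not given in the sources used here. From the values, each library is read counts divided by 1 factor, since 100% of values came back as whole reads within 0.1 read. Annotation release, molecular identifiers and strand of counting are not given in the sources used here. Depth was 5.61 to 9.55 M reads in WT vehicle and 20.2 to 27.3 M in WT OXA libraries, so low genes are measured less precisely under vehicle.

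Values were analysed as log2(value + 1) with limma 3.58.1 in R 4.3.3, with 4 group means over 16 libraries, a trended prior, two-sided tests and Benjamini-Hochberg adjustment over 15539 genes at a threshold of 0.05. The KO against WT difference is the interaction of that fit. Scripts used Python 3.11.15, pandas 2.3.3 and numpy 2.4.6. The fit was run on simulated reads with known changes in a small set of genes, as a check of the code. That setting differs from these data, where many genes changed, and does not bear on the scaling. Alternatives were other pseudocounts, filters, scalings and variance models, thinned reads, each library left out, the WT libraries alone, and edgeR 4.0.16 and DESeq2 1.42.0 on the recovered reads. The count tests were kept as alternatives because the deposited values are not counts.

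Genes were named by rule: the 12 largest called changes in each direction, by mean value and by fold, with the groups apart and the higher group's mean not under 100, leaving out predicted, unnamed and mitochondrial genes. Added were up to 4 members of each list by smallest p and members needed to read it, the most variable genes, and the 6 highest genes with 0 reads in the other group. Predicted, unnamed and mitochondrial genes were also left out of the most variable genes and of those with 0 reads. Members and lists were chosen with earlier results of these data known. No genome or protein table was used here, and a few items are not reported here.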

Additional observations from a re-analysis of the deposited data

Results flagged for a closer look

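Single libraries stood apart from the other 3 of their group in 25 of 304 checks of a named gene in a WT group. There the gap to the nearest library, as a share of the group's range, exceeded Dixon's critical value. Shares were taken on the deposited values, without the log. The chance rate of about 1 in 20 holds for normally distributed values of a gene not chosen on them. Some of these genes were named for a large spread or lie near 0 with 3 libraries at 0, so the count is not read against that rate. In the vehicle group 1 library was far above the rest for Sprr2e, Il19, Alox12e, Chil3 and Mcpt1, where it alone held reads (share 1 in each). The same was seen for Dbp (0.915), Cxcr6 (0.92), Krtdap (0.918), Cyp26b1 (0.913), Sprr2h (0.908), Cyp2f2 (0.894) and Nqo1 (0.876). It was also seen for Dapl1 (0.873), Cox8a (0.87), Il20ra (0.865), Gja1 (0.856), Apol9a (0.85) and Aldoc (0.85). In the OXA group the high libraries were those of Skint6 (0.922), Gzma (0.878), Cnn1 (0.874), Sprr1a (0.868), Ifi213 (0.865) and Batf3 (0.839), and 1 low library was found for Themis (0.865).

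The effect of OXA differed between KO and WT, by the interaction test in limma, in each of the 24 genes with the largest WT fold changes, which were chosen on WT values that enter this difference. As KO effect minus WT effect on the log2 scale, it was -6.15 for Sprr2e, -6.04 for Sprr2f, -5.20 for Sprr2h, -3.27 for Sprr2d and -4.24 for Sprr2i. It was -5.24 for Krt16, -4.36 for Krt6a, -5.95 for Chil4, -5.56 for Il19, -6.17 for Alox12e, -6.36 for Alox15 and -5.65 for Igha. Of the genes that fell in WT, Slurp2 differed by 8.05, Lce1k by 7.48, Lce1j by 6.96, Lce1l by 6.71, Lce1m by 7.14, Flg by 7.80 and Dapl1 by 7.32. Tmem45a2 differed by 7.88, Skint6 by 6.34, Aldh3a1 by 6.09, Cyp2a5 by 5.81 and Ada by 6.13.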

How the results depend on the processing

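Over 31 alternatives the WT calls ranged from 4498 to 6114 when 1 library was left out (2310 to 3252 higher, 2188 to 2862 lower). Equal library totals gave 5059 higher and 1485 lower, the sole setting that moved either WT count by more than 1.5 times. edgeR called 2752 higher and 2715 lower, DESeq2 2997 and 2974, and quantile normalization 2910 and 2985. The calls in KO ranged from 184 to 1051 with a library left out, the highest without KO OXA replicate 4, and DESeq2 gave 724. Of 152 named genes 148 were called, 141 of them in every alternative, and 7 lost the call in at least 1. With a library left out the change of Gkn2 ranged from -1.60 to 0.067, positive without WT OXA replicate 1. Of 37 list medians 28 kept their sign. With equal totals the signs turned for stefins, cystatins and serpins (0.247), gap junctions and mucins (0.11), EGF, Notch and Wnt genes (0.261), lipid enzymes (0.168), p53 targets (0.0286), clock genes (0.173) and squamous markers (0.066). With a library left out, the median of stefins, cystatins and serpins ranged from -0.214 to 0.13 (positive without WT vehicle replicate 2) and that of gap junctions and mucins from -0.329 to 0.0543 (positive without WT OXA replicate 1). The median of antimicrobial proteins turned with the filter of 20 (-0.00419) and, like that of eicosanoid enzymes and receptors (-0.0279), with quantile normalization (-0.0418). The cause was not tested. No paired analysis was possible because the title codes of the libraries pair no samples across groups. Below a mean value of 10, 14.4% of genes were called, and the part of depth in that share was not tested.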
